A study of Drosophila melanogaster with 21 samples.

Results

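L1 neurons of wild type Drosophila melanogaster pupae were compared at 2 ages, 72 h and 40 h after puparium formation, by bulk RNA-seq. The comparison used the 4 RNA libraries of these ages, 2 at 72 h and 2 at 40 h, of 21 samples in the series. The 3 RNA libraries made at 60 h entered the estimate of the spread and are given as values where they place a change in time. In all of these groups the cells came from the brain, were isolated as L1 neurons by fluorescence-activated cell sorting and carried no genetic perturbation by their labels. The other samples were 6 ATAC-seq libraries of the same cells at the 3 ages, used here for promoter accessibility, and 8 single-cell samples, not analysed here. The labels do not give the marker or driver used for the sort, the sex of the pupae or whether the libraries of an age came from separate pools of animals, so a p-value measures the spread between these libraries, which may be technical. Genes are named by symbol, with no coordinates, because the sources used here give no genome build.

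L1 is a monopolar neuron of the lamina, the first relay of the fly visual system. It receives histamine from the photoreceptors and releases glutamate onto neurons of the medulla. In the first part of pupal life its axon reaches the medulla, arborises in particular layers and chooses partners, and in the second part it builds synapses and becomes excitable. Pulses of the steroid ecdysone pace this development in many fly tissues through nuclear receptors that switch on in sequence. The comparison of 72 h with 40 h spans the change from a wiring neuron to a maturing one.

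The deposited values were RPKM, reads per kilobase of gene scaled to library size, so that levels of different genes can be set side by side. A gene was tested when it reached 1 RPKM in at least 2 of the 4 libraries. Of 7076 genes in the table, 6887 passed and 189 did not. Just inside this limit were pHCl-1, zormin and Nos, whose second-highest library held 1.01 RPKM. Just outside were dy with 0.9998 RPKM, DIP-alpha with 0.996 RPKM and NaPi-T with 0.994 RPKM. Changes are differences of log2(RPKM + 1), 72 h minus 40 h, with the standard error from limma, and they understate the change of genes near 1 RPKM. A gene was called when its Benjamini-Hochberg adjusted p over all 6887 genes was below 0.05.

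Libraries of the same age resembled each other far more than libraries of different ages. Pearson's r of log2(RPKM + 1) across the tested genes was 0.981 between the 72 h libraries and 0.976 between the 40 h libraries, and it was 0.731 to 0.742 between a 72 h and a 40 h library. The first principal component held 68.3% of the variance, with the 72 h libraries at 53.0 and 49.1, the 60 h libraries at 8.59 to 14.2 and the 40 h libraries at -70.8 and -67.2. Reads were recovered from the RPKM steps for the deposited genes alone. They came to 27.6 M and 27.9 M in the 72 h libraries, against 39.5 M and 38.3 M in the 40 h libraries. The library sizes behind the RPKM were 23.2 M and 25.3 M at 72 h, against 46.1 M and 46.0 M at 40 h, so the authors' values carry a scaling beyond total reads.

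The sorted cells carried L1 genes at both ages. Of 8 tested genes listed as markers of L1, glutamatergic or mature neurons, ort, VGlut, bab2 and nSyb were higher at 72 h. From the same list dac, elav and brp were lower and svp did not pass. The call of bab2, a gene at low level, was lost without the second 72 h library. It is not taken here as a sign of L1. The L1 transcription factor gene svp was at 139 and 122 RPKM at 72 h, against 125 and 116 RPKM at 40 h (log2 change 0.11 ± 0.12, adjusted p = 0.43), and the values of the 2 ages overlapped. VGlut, the vesicular glutamate transporter of L1, stood at 699.5 and 519 RPKM at 72 h, against 207 and 225 RPKM at 40 h, higher in both 72 h libraries. The cholinergic gene ChAT reached 16.1 and 13 RPKM at 72 h, against 1.42 and 1.59 RPKM at 40 h, and the GABA synthesis gene Gad1 reached 5.99 and 3.13 RPKM at 72 h, against 0.394 and 0.360 RPKM at 40 h. Both lay far below VGlut in every library, although both were called higher at 72 h. The vesicular GABA transporter gene VGAT was at 83.9 and 65.9 RPKM at 72 h, against 22.8 and 24.5 RPKM at 40 h. Of 6 GABAergic and aminergic markers tested 2 (33.3%), Gad1 and VGAT, were higher and 1 (16.7%), Tbh, was lower. Of all genes 30.5% were higher and 29.4% lower.

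Genes known from glia were at low levels at 40 h and at higher levels at 72 h, most of all in the second 72 h library. Of the 13 glial markers tested, 10 were called higher and 1, Gli, lower. Their summed level was 721 and 2016 RPKM at 72 h, against 90.3 and 121 RPKM at 40 h. The glial transcription factor gene repo was at 5.08 and 16.7 RPKM at 72 h, against 0.253 and 1.14 RPKM at 40 h. The glutamine synthetase gene Gs2 was at 219.97 and 825 RPKM at 72 h, against 8.0 and 5.23 RPKM at 40 h, and e, which encodes an enzyme that conjugates histamine and dopamine to beta-alanine, was at 91.8 and 265 RPKM at 72 h, against 0.517 and 0.685 RPKM at 40 h. In each of these genes the second 72 h library was the highest of the 4. Gs2 held only 18, 9.82 and 6.53 RPKM at 60 h, and the median of the 10 markers that changed at least 2-fold had covered 4.58% of its change by then. The markers wrapper, gcm, Tret1-1, Indy, mdy and Mdr65 were not among the genes analysed. The calls of alrm and Eaat1 were lost without the second 72 h library. In bulk samples more cells of a type and more RNA per cell cannot be told apart.

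**Figure D1:**
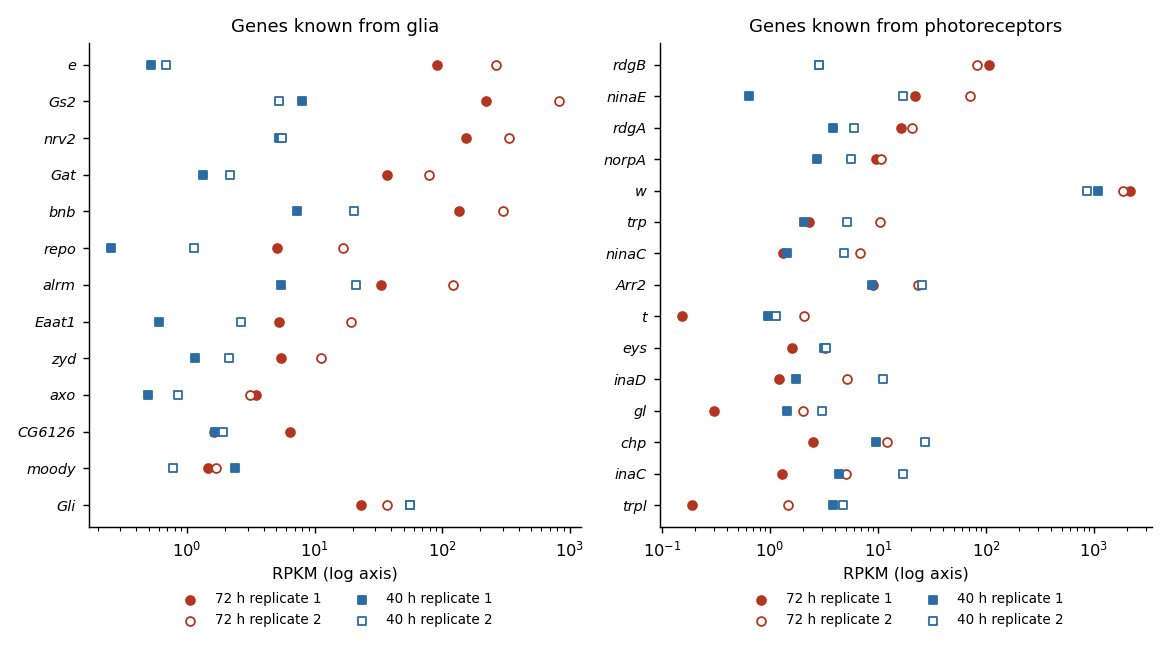
RPKM in each library (log axis) of the tested genes known from glia (left) and from photoreceptors (right), with circles for 72 h and squares for 40 h, filled for replicate 1 and open for replicate 2. For most glial genes the open circles of the second 72 h library lie furthest right, as for Gs2 at 825 RPKM, whereas photoreceptor genes other than w, rdgB and ninaE hold at most 27.1 RPKM in any library.

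Genes known from photoreceptors, whose axons meet L1 in the lamina, did not move together. Of 15 tested, 5 (33.3%) were called higher and 1 (6.67%) lower, where 30.5% of all genes were higher and 29.4% lower. The median log2 change of -0.04 changed sign to 0.04 under quantile normalization. The lower 72 h library exceeded the higher 40 h library 29.0-fold for rdgB, 2.72-fold for rdgA and 1.71-fold for norpA. The rhodopsin gene ninaE was at 22.1 and 70.7 RPKM at 72 h, against 0.641 and 16.9 RPKM at 40 h, with the libraries of each age far apart, and its call was lost in 5 of the alternatives, among them those without the second 72 h library or without the first 40 h library. Replicate 2 held more RPKM of the arrestin gene Arr2 at both ages, with 9.0 and 23.4 at 72 h, against 8.70 and 25.6 at 40 h. The eye pigment transporter gene w, which fly transgenes often carry as a marker, was abundant, with 2154 and 1865 RPKM at 72 h, against 1096 and 856 RPKM at 40 h. Of 4 hemocyte markers tested 3 were lower and 1 higher. Among them Pxn fell, with 43.9 and 43.5 RPKM at 72 h, against 341 and 332 RPKM at 40 h, and crq, which encodes a scavenger receptor, rose to 82.4 and 58.8 RPKM at 72 h, against 18.4 and 20.5 RPKM at 40 h. Of 12 markers of other lamina and medulla neurons 5 (41.7%) were higher and 2 (16.7%) lower. Their summed level was 114 and 113 RPKM at 72 h, against 115 and 122 RPKM at 40 h. The 5 higher markers, all changed at least 2-fold, had covered a median of 4.57% of their change by 60 h. Of 2 progenitor markers 1, stg, was higher. No muscle or fat body marker was among the genes tested. The part that glial or photoreceptor RNA had in the results below was not tested.

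About 6 in 10 genes changed between 72 h and 40 h, in near-equal numbers each way. At 72 h 2102 genes were higher and 2024 were lower, 4126 in all, or 59.9% of those tested, 30.5% higher and 29.4% lower. These shares of all genes are the baseline for the counts of each gene group. The change was at least 2-fold for 1273 of the higher and 1223 of the lower genes, together 36.2% of the genes tested. It was at least 8-fold for 204 higher and 144 lower genes, and at least 32-fold for 50 higher and 32 lower genes. The libraries of the 2 ages did not overlap for 5402 genes, or 78.4%. Most genes named below were chosen for large changes, so a lack of overlap adds no separate support for them. The median change of all genes was -0.01 and the median standard error 0.20, both in log2 units. The balance between the directions depended on the authors' scaling. Total-read scaling, here to the recovered reads of the deposited genes alone, shifted the median of all genes by -0.40. The split became 1406 higher and 3117 lower, so that 31.1% of the called genes were higher in place of 50.9%. Shares of the summed RPKM within a library, which do not change when a library is scaled by 1 factor, are therefore given beside many of the gene groups. They would change under quantile normalization. They also depend on the total over all genes, which differed between the ages. A group's share can thus fall although its summed RPKM does not.

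**Figure D2:**
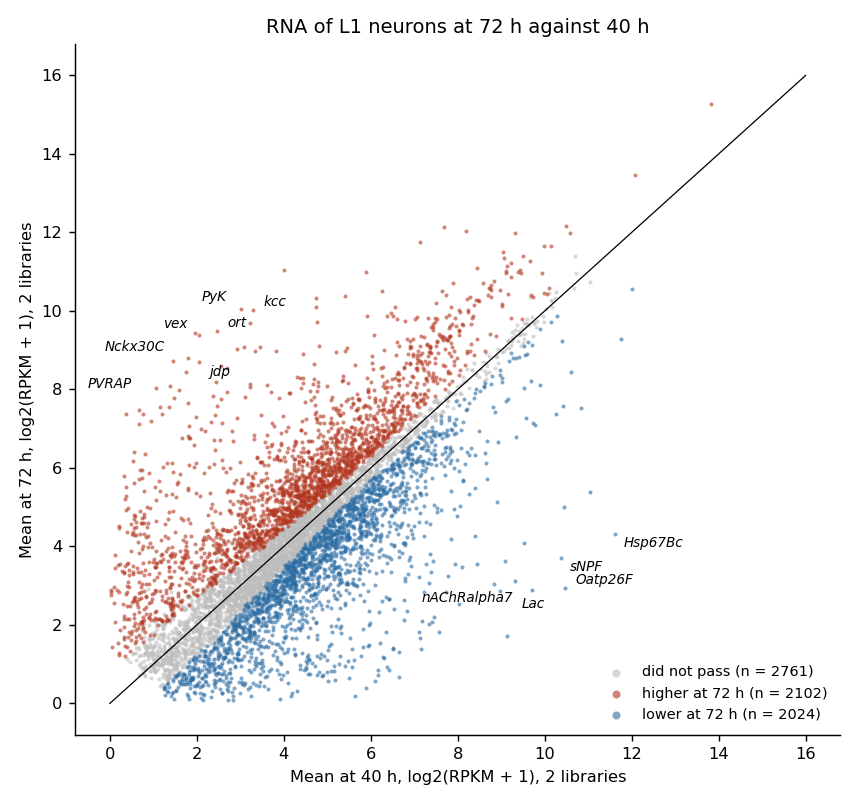
Mean log2(RPKM + 1) of the 2 libraries at 72 h (vertical) against the mean of the 2 libraries at 40 h (horizontal) for the 6887 genes tested, with the 2102 genes higher at 72 h in red, the 2024 genes lower at 72 h in blue and the others in grey. The line marks equal levels, and the named genes are those with characterised products among the 12 largest rises and the 12 largest falls.

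The 12 largest rises were in genes with at most 21.8 RPKM in either 40 h library and included a receptor, a transporter pair and a glycolytic enzyme. The gene vex showed the largest rise, with 695 and 638 RPKM at 72 h, against 3.78 and 2.52 RPKM at 40 h (log2 change 7.35 ± 0.17, adjusted p = 8.2e-10). PyK, which encodes pyruvate kinase, the last enzyme of glycolysis, had 1169 and 957 RPKM at 72 h, against 8.25 and 6.02 RPKM at 40 h (log2 change 7.04 ± 0.18, adjusted p = 1.2e-09). The ort gene, which encodes the histamine-gated chloride channel through which L1 receives photoreceptor input, had 846 and 600.2 RPKM at 72 h, against 3.98 and 5.02 RPKM at 40 h (log2 change 7.03 ± 0.27, adjusted p = 1.1e-08). Even the lower 72 h library was at least 116-fold above the higher 40 h library in all 3 genes. Nckx30C, a sodium/calcium-potassium exchanger, had 509.8 and 379 RPKM at 72 h, against 2.77 and 2.19 RPKM at 40 h. The gene kcc, a potassium/chloride cotransporter, had 1109.98 and 975 RPKM at 72 h, against 10.2 and 7.39 RPKM at 40 h. PVRAP, an adaptor of the PVR receptor tyrosine kinase, stood at 273 and 254 RPKM at 72 h, against 1.17 and 1.03 RPKM at 40 h, and jdp, a J-domain protein, at 460.4 and 368 RPKM at 72 h, against 4.37 and 1.85 RPKM at 40 h. These 4 genes changed by 6.72 to 6.99 log2 units with standard errors of 0.16 to 0.33. A lack of overlap between the ages was part of the choice of all 12 rises and 12 falls.

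The remaining 5 of the 12 were known by number alone, and 3 of them differed more than 2-fold between the 72 h libraries. CG2145 had 353 and 1029 RPKM at 72 h, against 2.66 and 3.12 RPKM at 40 h. CG42489 had 239.8 and 609 RPKM at 72 h, against 1.42 and 2.05 RPKM at 40 h. CG1537 had 83.9 and 245 RPKM at 72 h, against 0.274 and 0.325 RPKM at 40 h. All 3 were higher in the second 72 h library, as most glial markers were. CG15201 had 1801 and 2438 RPKM at 72 h, against 21.8 and 8.27 RPKM at 40 h. CG12541 had 366 and 324 RPKM at 72 h, against 1.72 and 3.01 RPKM at 40 h. The 72 h libraries of both lay closer together. Among all 2102 genes called higher, 105 had 72 h libraries more than 2-fold apart, of which 93 were higher in the second library and 12 in the first.

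The 12 largest falls included genes of a transporter, a surface protein, a neuropeptide and a receptor subunit. Oatp26F, an organic anion transporter gene, had 6.58 and 6.86 RPKM at 72 h, against 1471 and 1334 RPKM at 40 h (log2 change -7.51 ± 0.34, adjusted p = 3.2e-08). Lac, the gene of the Ig-domain surface protein Lachesin, had 7.49 and 5.23 RPKM at 72 h, against 965 and 715 RPKM at 40 h (log2 change -6.84 ± 0.46, adjusted p = 4.5e-07). The gene sNPF, which encodes the precursor of short neuropeptide F, had 11.2 and 12.8 RPKM at 72 h, against 1341 and 1307 RPKM at 40 h (log2 change -6.67 ± 0.15, adjusted p = 8.2e-10). The nicotinic acetylcholine receptor subunit gene nAChRalpha7 had 5.25 and 9.23 RPKM at 72 h, against 307 and 602 RPKM at 40 h (log2 change -5.75 ± 0.31, adjusted p = 1.1e-07), with the second 40 h library 1.96-fold above the first. The lower 40 h library exceeded the higher 72 h library 33.2-fold for nAChRalpha7 and 95.4-fold to 195-fold for the other 3. Hsp67Bc, a small heat shock protein gene, is described with its family below. The other 7, CG15522, CG31676, CG15097, CG14086, CG13023, CG8407 and CG12880, fell by 5.72 to 7.44 log2 units, for example CG14086 to 0.757 and 0.412 RPKM at 72 h, against 91.2 and 108 RPKM at 40 h. Among the 2024 genes called lower, 88 had 40 h libraries more than 2-fold apart.

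**Figure D3:**
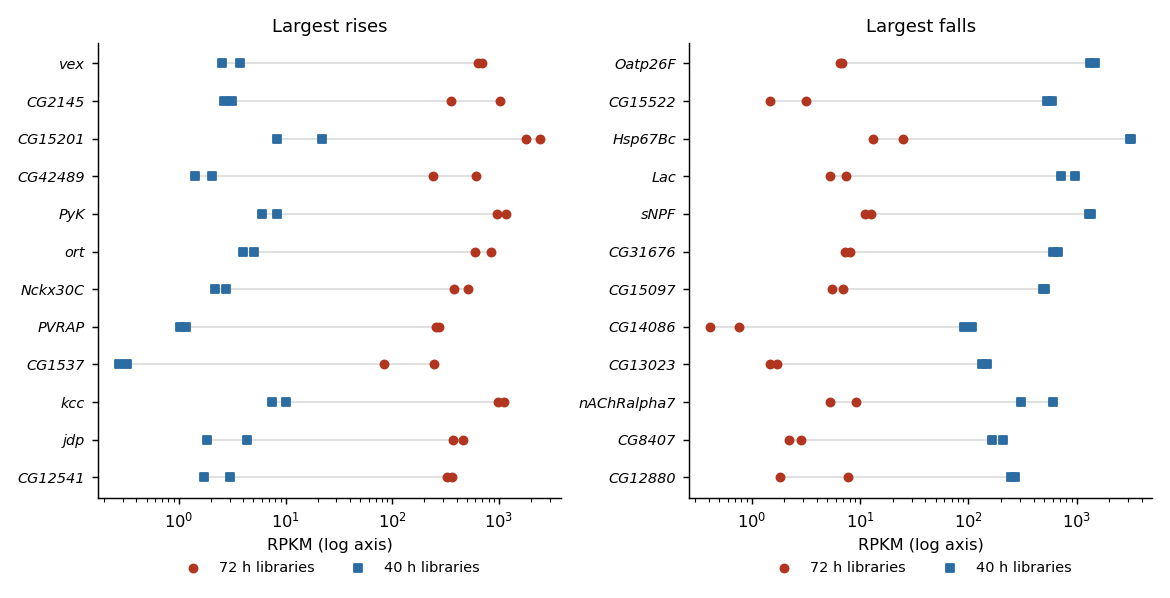
RPKM in each library (log axis) of the 12 genes with the largest rises (left) and the 12 with the largest falls (right), ordered by log2 change from the top, with circles for the 72 h libraries and squares for the 40 h libraries. The genes were chosen for a lack of overlap between the ages. Among the rises the circles stand apart for CG2145, CG42489 and CG1537.

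The most abundant genes also changed places. At 72 h the noncoding RNA gene lncRNA:noe and the mitochondrial ribosomal RNA lrRNA were followed by Cyt-c-p, COX3, CG9813, sesB, ATPsynC, ATPsynbeta, COX1 and Obp44a, of which 6 are genes of the respiratory chain, ATP synthase or the mitochondrial ATP/ADP carrier. At 40 h the same 2 noncoding RNAs were followed by alphaTub84B, betaTub56D, Hsp67Bc, CG46448, Hsp23, Hsp26, RpL40 and lncRNA:CR34335. The level of lncRNA:noe was 44564 and 34564 RPKM at 72 h, against 17951 and 11039.5 RPKM at 40 h, and its call was lost without the second 40 h library and under quantile normalization. Cyt-c-p, the somatic cytochrome c gene, was at 5217 and 3857 RPKM at 72 h, against 226 and 184 RPKM at 40 h, and sesB, the ATP/ADP carrier gene, at 4489.6 and 3608 RPKM at 72 h, against 675 and 603 RPKM at 40 h. Obp44a, of the odorant-binding protein family, was at 1924 and 4944 RPKM at 72 h, against 83.7 and 195 RPKM at 40 h, with the second 72 h library over 2-fold above the first.

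Most of the net change had taken place by 60 h, but not for every gene. This age lies past the midpoint between 40 h and 72 h, so a steady pace would also reach most of the change. For the 1273 genes higher by at least 2-fold, the 60 h mean had covered a median of 64.3% of the log2 distance from the 40 h to the 72 h mean, with quartiles at 38.7% and 81.4%. For the 1223 genes lower by at least 2-fold the median was 64.4%, with quartiles at 45.7% and 87.6%. The 60 h mean lay past the 72 h mean for 143 of the higher and 199 of the lower genes, and on the far side of the 40 h mean for 108 of the higher and 35 of the lower genes. The gene vex stood at 363, 475 and 445 RPKM at 60 h, near its 72 h level, whereas ort stood at 12.9, 23.6 and 23.4 RPKM at 60 h and CG2145 at 1.36, 3.08 and 8.45 RPKM at 60 h, near their 40 h levels. Among the falls, CG14086 was at 0.549, 0.737 and 0.374 RPKM at 60 h and had already ended its fall, whereas Oatp26F was still at 326, 126 and 148 RPKM at 60 h. These positions share the 72 h and 40 h libraries with the comparison itself and are a description.

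Genes of energy metabolism rose as whole pathways. All 65 tested genes of oxidative phosphorylation were called higher at 72 h, with a median log2 change of 1.69, where 30.5% of all genes were higher and the median was -0.01. Their summed level took 11.5% and 10.6% of the summed RPKM at 72 h, against 4.68% and 4.58% at 40 h. Cyt-c-p, which carries electrons to cytochrome oxidase, changed most (log2 change 4.46 ± 0.21, adjusted p = 3.8e-08). The other 64 ranged more narrowly, as shown by ND-MLRQ of complex I with 1668 and 1655 RPKM at 72 h, against 356 and 409 RPKM at 40 h. ATPsynC, a subunit of the ATP synthase ring, had 4231 and 3858 RPKM at 72 h, against 1510.3 and 1562 RPKM at 40 h. The groups of libraries did not overlap for any of these 3 genes, as for 78.4% of all genes tested.

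Genes of glycolysis rose too. All 12 tested genes were higher, with a median of 3.45, and their share was 1.65% and 1.45% of the summed RPKM at 72 h, against 0.240% and 0.217% at 40 h. After PyK the largest changes were in Pfk, the committing step of the pathway, with 241 and 187 RPKM at 72 h, against 5.78 and 3.90 RPKM at 40 h (log2 change 5.21 ± 0.20, adjusted p = 1.3e-08), and in Ald1, the aldolase gene, with 519 and 439.6 RPKM at 72 h, against 20.9 and 20.5 RPKM at 40 h (log2 change 4.46 ± 0.12, adjusted p = 1.3e-09). Pglym78, a phosphoglycerate mutase gene, had 1600.4 and 1299 RPKM at 72 h, against 81.8 and 69.1 RPKM at 40 h, and Gapdh2 was the most abundant with 2269 and 2066 RPKM at 72 h, against 379 and 319.9 RPKM at 40 h. In each gene the first 72 h library was the higher of the pair, opposite to the order in most glial markers. Among the tested genes listed under the TCA cycle 14 of 17 were higher and 2 lower. The list also holds Pdha, Pdhb and muc of pyruvate dehydrogenase and PCB, pyruvate carboxylase, which lie outside the cycle proper. For PCB the lower 72 h library exceeded the higher 40 h library 10.5-fold. Citrate synthase, kdn, had 175 and 106 RPKM at 72 h, against 37 and 17.8 RPKM at 40 h. The mitochondrial malate dehydrogenase gene Mdh2 had 1387 and 1375 RPKM at 72 h, against 613 and 533 RPKM at 40 h. The 2 that fell were ScsbetaG, the GTP-forming succinyl-CoA ligase subunit, with 6.36 and 6.41 RPKM at 72 h, against 48.3 and 35.3 RPKM at 40 h (log2 change -2.52 ± 0.20, adjusted p = 1.5e-06), and Idh, with 11.8 and 18.7 RPKM at 72 h, against 52.8 and 54.5 RPKM at 40 h (log2 change -1.79 ± 0.21, adjusted p = 2.9e-05). Idh encodes the NADP-dependent isocitrate dehydrogenase, which acts outside the cycle proper.

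Mitochondrial translation and the vacuolar proton pump rose with them. Of 71 mitochondrial ribosomal protein genes 61 were higher and none lower, with a median of 0.83. They took 0.991% and 1.01% of the summed RPKM at 72 h, against 0.765% and 0.742% at 40 h. The largest change was in mRpL28, with 192 and 163 RPKM at 72 h, against 37 and 34.8 RPKM at 40 h (log2 change 2.27 ± 0.12, adjusted p = 1.0e-07). The count was 38 when libraries were scaled to total reads. All 17 genes of the vacuolar ATPase, which acidifies synaptic vesicles and lysosomes, were higher with a median of 1.94. The subunit genes Vha13, with 1747 and 1596 RPKM at 72 h, against 249 and 222 RPKM at 40 h, and Vha55, with 939.9 and 825 RPKM at 72 h, against 184 and 183 RPKM at 40 h, showed no overlap between the ages. The pump's share was 2.30% and 2.09% of the summed RPKM at 72 h, against 0.766% and 0.714% at 40 h. Lysosomal genes did not follow as a group, since 5 of 13 were higher and 4 lower, near the shares of all genes. Npc2a, a cholesterol-binding protein gene, rose to 56.6 and 58.4 RPKM at 72 h, against 3.66 and 3.37 RPKM at 40 h, and Gga, a sorting adaptor gene, was lower, at 10.2 and 13.6 RPKM at 72 h, against 33.1 and 26.8 RPKM at 40 h.

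**Figure D4:**
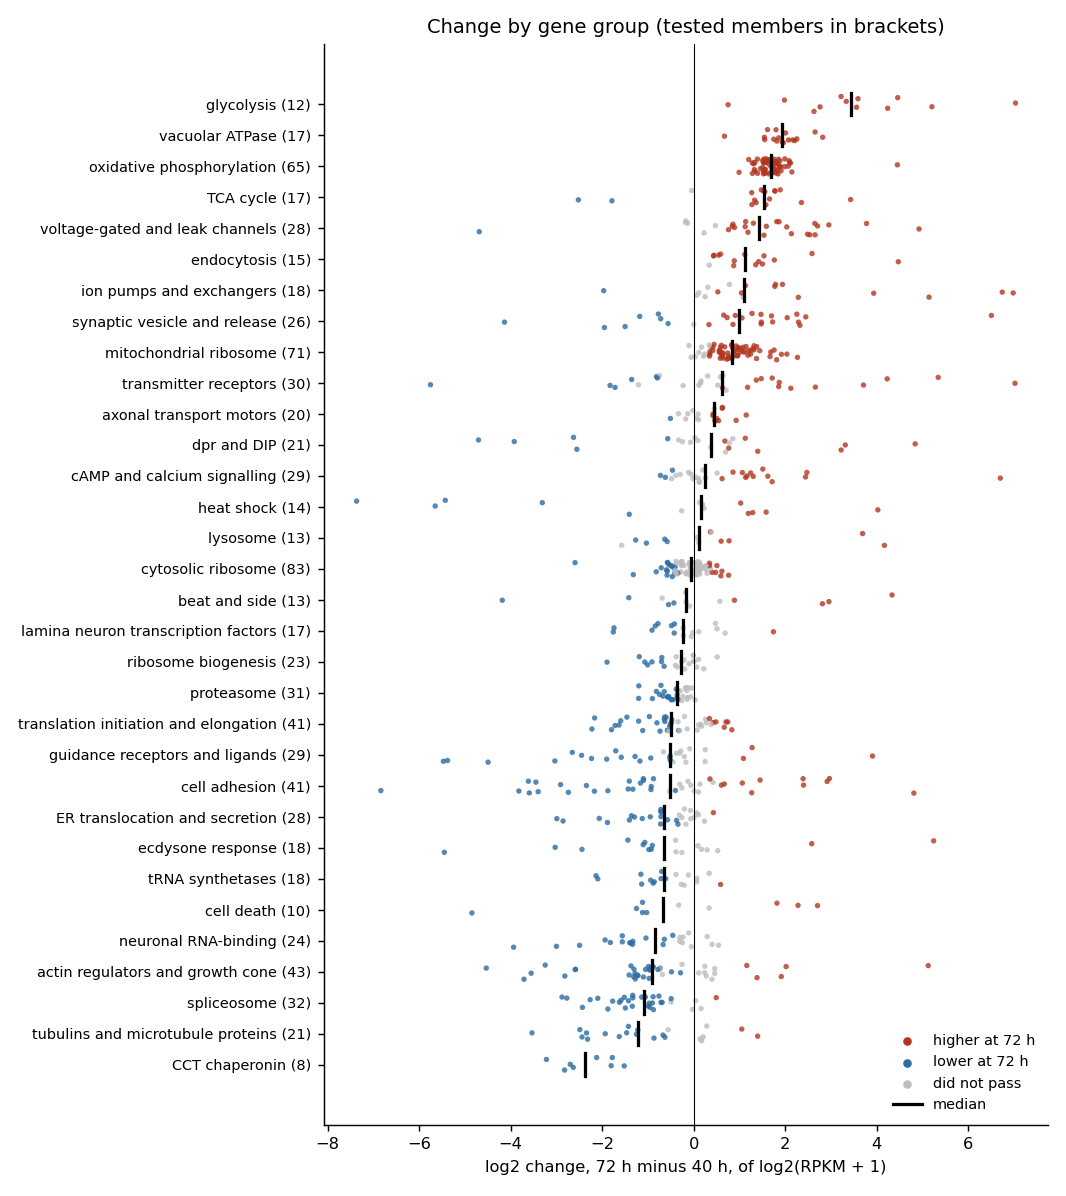
Change in log2(RPKM + 1), 72 h minus 40 h, of each tested gene in the 32 gene groups with at least 8 tested members, ordered by median (black bar), with red for genes higher at 72 h, blue for genes lower at 72 h and grey for genes that did not pass. Glycolysis, with a median of 3.45, lies at the top and the CCT chaperonin, with a median of -2.37, at the bottom.

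The machinery that splices RNA and makes, folds and degrades protein was lower at 72 h or split. Of 32 spliceosome genes 27 were lower and 1 higher, with a median of -1.09, where 29.4% of all genes were lower. The Sm core genes led, with SmF at 8.49 and 10.3 RPKM at 72 h, against 77.8 and 72.1 RPKM at 40 h (log2 change -2.88 ± 0.16, adjusted p = 1.4e-07). SmB was at 21.7 and 24.3 RPKM at 72 h, against 172 and 154 RPKM at 40 h (log2 change -2.77 ± 0.14, adjusted p = 5.7e-08). The abundant branch-point factor gene Sf3b6 was at 93.2 and 108 RPKM at 72 h, against 502 and 467 RPKM at 40 h. The ages did not overlap in any of the 3, as for 78.4% of all genes tested. The exception, Sf3b5, had 153 and 129.6 RPKM at 72 h, against 108 and 91.9 RPKM at 40 h, and its call was lost under quantile normalization, with total-read scaling and without the first 72 h library. Together these genes took 0.148% and 0.156% of the summed RPKM at 72 h, against 0.552% and 0.560% at 40 h.

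Every tested subunit of the CCT chaperonin, a ring complex that folds actin and tubulin, fell. The 8 genes had a median of -2.37, as seen for CCT7 with 10.7 and 12.6 RPKM at 72 h, against 119 and 113 RPKM at 40 h (log2 change -3.22 ± 0.16, adjusted p = 7.6e-08). CCT4 had 36.9 and 42.7 RPKM at 72 h, against 149.6 and 128 RPKM at 40 h. Proteasome genes were also lower, with 19 of 31 lower, none higher and a median of -0.36. The proteasome took 0.557% and 0.558% of the summed RPKM at 72 h, against 1.12% and 1.03% at 40 h. Prosbeta3, a subunit of the catalytic ring, had 94.4 and 83.9 RPKM at 72 h, against 217 and 195 RPKM at 40 h. The count of proteasome genes called lower depended on the scaling, with 30 under quantile normalization and 31 with total-read scaling, and it was 12 without the first 40 h library.

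Genes of the endoplasmic reticulum translocon, glycosylation and coat complexes were lower in 17 of 28, with a median of -0.64. OstDelta and Stt3A, subunits of the oligosaccharyltransferase that glycosylates new membrane proteins, led. OstDelta had 14.4 and 22 RPKM at 72 h, against 165 and 134 RPKM at 40 h (log2 change -2.99 ± 0.19, adjusted p = 2.9e-07). Stt3A had 13.5 and 13.2 RPKM at 72 h, against 124 and 85.4 RPKM at 40 h (log2 change -2.85 ± 0.20, adjusted p = 6.3e-07). Pdi, a protein disulfide isomerase gene, had 66.5 and 93.5 RPKM at 72 h, against 369 and 299.9 RPKM at 40 h. Each of the 3 was lower in both 72 h libraries than in either 40 h library. The ages were separate for 78.4% of all genes tested. Srp54k, a subunit of the signal recognition particle, was the only member called higher, at 93 and 86 RPKM at 72 h, against 69.1 and 63 RPKM at 40 h, and its change turned to about 0 with total-read scaling and its call was lost under quantile normalization.

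Cytoplasmic translation was uneven. Of 41 initiation and elongation factor genes 22 were lower and 7 higher, with a median of -0.48. The elongation factor gene eEF1alpha2 had 301 and 395 RPKM at 72 h, against 1592 and 1506 RPKM at 40 h (log2 change -2.16 ± 0.16, adjusted p = 7.4e-07). The initiation factor gene eIF2gamma had 9.06 and 15.7 RPKM at 72 h, against 60.1 and 58.8 RPKM at 40 h (log2 change -2.22 ± 0.25, adjusted p = 2.2e-05). The start-site selection factor gene eIF1 was higher, at 639 and 599 RPKM at 72 h, against 334 and 358 RPKM at 40 h, a call lost under quantile normalization. Of 18 tRNA synthetase genes 10 were lower, led by AlaRS at 9.55 and 9.11 RPKM at 72 h, against 49.6 and 39.6 RPKM at 40 h, and TyrRS alone was higher, with a call that was lost with total-read scaling and without the first 72 h library. Without that library 6 synthetase genes were lower. Of 23 ribosome biogenesis genes none was higher and 8 were lower, or 34.8%, near the 29.4% of all genes. Among them NHP2, a protein of the pseudouridylation particles, had 5.30 and 6.03 RPKM at 72 h, against 23.9 and 23.5 RPKM at 40 h.

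The cytosolic ribosomal proteins moved little gene by gene. Of 83 tested, 8 were higher and 17 lower, with a median of -0.06, and their share was 8.60% and 10.1% of the summed RPKM at 72 h, against 13.8% and 13.3% at 40 h. Their summed level itself overlapped, at 48843 and 53932 RPKM at 72 h, against 54936 and 48748 RPKM at 40 h. The members with the largest falls were minor or variant genes, such as RpS5b with 0.544 and 1.33 RPKM at 72 h, against 9.64 and 11.3 RPKM at 40 h. RpL40, the most abundant, was at 2019 and 2004 RPKM at 72 h, against 1758 and 1626 RPKM at 40 h, and RpL21 rose to 1249.99 and 1346 RPKM at 72 h, against 861 and 827 RPKM at 40 h. The direction of the group depended on scaling: 1 was higher and 74 lower under quantile normalization, and 1 higher and 57 lower with total-read scaling. RpL21, RpL15 and RpL40 changed sign under quantile normalization, and the call of RpL21 was lost with total-read scaling. Without the first 72 h library 7 were lower, and without the first 40 h library 9. Without the second 72 h library 4 were higher, and without the second 40 h library 3.

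Small heat shock protein genes were among the most abundant transcripts at 40 h and far lower at 72 h. Hsp67Bc had 24.7 and 13.1 RPKM at 72 h, against 3193 and 3080.1 RPKM at 40 h (log2 change -7.37 ± 0.36, adjusted p = 4.8e-08). Hsp23 had 41.5 and 39.8 RPKM at 72 h, against 2096 and 2083 RPKM at 40 h (log2 change -5.65 ± 0.25, adjusted p = 3.0e-08). Hsp27 had 16.8 and 15.3 RPKM at 72 h, against 842 and 635 RPKM at 40 h (log2 change -5.43 ± 0.19, adjusted p = 5.8e-09). Hsp26 fell by less, to 184 and 184 RPKM at 72 h, against 1862 and 1798 RPKM at 40 h. The lower 40 h library exceeded the higher 72 h library 9.77-fold for Hsp26 and 37.9-fold to 125-fold for the other 3. The group as a whole was divided, with 5 of 14 higher and 5 of 14 lower, near the shares of all genes, and its median of 0.16 turned negative under both other scalings. Its share was 0.678% and 0.718% of the summed RPKM at 72 h, against 2.82% and 2.82% at 40 h. The constitutive chaperone gene Hsc70-4 was at 1436 and 1435 RPKM at 72 h, against 1310.2 and 1146 RPKM at 40 h, and the mitochondrial chaperone gene Hsc70-5 rose to 266 and 262 RPKM at 72 h, against 88.3 and 86.2 RPKM at 40 h. The stress-inducible gene Hsp68 had 178 and 159 RPKM at 72 h, against 55 and 84.2 RPKM at 40 h, and its call was lost with total-read scaling, without the first 72 h library and without the first 40 h library. The co-chaperone gene stv rose, with 80.7 and 92.6 RPKM at 72 h, against 4.67 and 4.06 RPKM at 40 h (log2 change 4.03 ± 0.14, adjusted p = 5.6e-09).

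**Figure D5:**
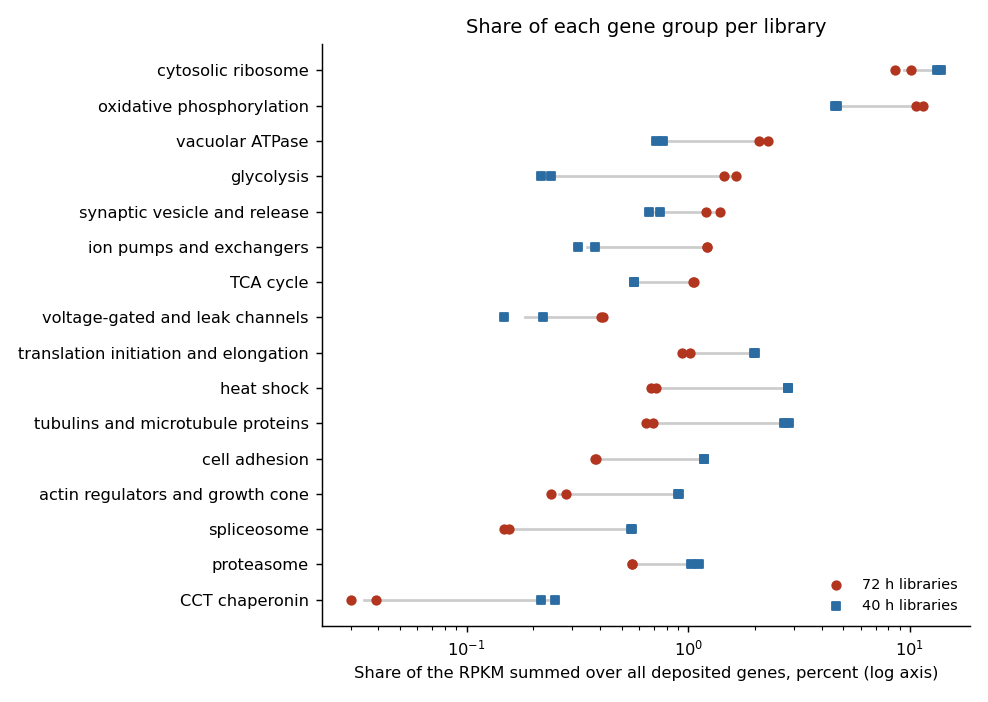
Share of the RPKM summed over all deposited genes (percent, log axis) taken by 16 gene groups in each library, with circles for 72 h and squares for 40 h. Oxidative phosphorylation, the vacuolar ATPase, glycolysis and the synaptic and channel groups take larger shares at 72 h, and ribosomal, tubulin, heat shock, spliceosome and CCT genes take larger shares at 40 h.

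Cytoskeletal genes of axon growth were lower at 72 h. Of 43 actin regulators and growth cone genes 28 were lower and 5 higher, with a median of -0.90. Their share was 0.240% and 0.281% of the summed RPKM at 72 h, against 0.90% and 0.912% at 40 h. The fascin gene sn, whose product bundles actin in filopodia, had 2.46 and 2.62 RPKM at 72 h, against 81.5 and 80.3 RPKM at 40 h (log2 change -4.53 ± 0.25, adjusted p = 1.3e-07). The profilin gene chic had 12 and 22.6 RPKM at 72 h, against 234 and 223 RPKM at 40 h (log2 change -3.71 ± 0.22, adjusted p = 2.3e-07). The cofilin gene tsr, whose product severs actin filaments, had 95.1 and 122 RPKM at 72 h, against 678 and 621 RPKM at 40 h. The coronin family gene pod1, which links actin and microtubules in growth cones, had 9.37 and 8.27 RPKM at 72 h, against 123 and 106 RPKM at 40 h. All 4 were lower in both 72 h libraries, without overlap, where 78.4% of all genes tested showed none. Fhos, a formin gene, went the other way, with 45.8 and 43.2 RPKM at 72 h, against 0.335 and 0.266 RPKM at 40 h (log2 change 5.13 ± 0.32, adjusted p = 2.9e-07).

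Of 21 tubulin and microtubule genes 14 were lower and 2 higher, with a median of -1.22 and shares of 0.692% and 0.646% of the summed RPKM at 72 h, against 2.84% and 2.71% at 40 h. The main tubulin genes were betaTub56D, with 684 and 553 RPKM at 72 h, against 3721 and 3201 RPKM at 40 h (log2 change -2.49 ± 0.18, adjusted p = 8.4e-07), and alphaTub84B, with 1639.5 and 1359 RPKM at 72 h, against 4553 and 3728 RPKM at 40 h (log2 change -1.46 ± 0.19, adjusted p = 7.6e-05). The severing enzyme gene spas, spastin, had 13 and 13.2 RPKM at 72 h, against 166 and 159 RPKM at 40 h. CRMP, a collapsin response mediator protein gene, had 44.7 and 56.7 RPKM at 72 h, against 287 and 268 RPKM at 40 h. None of the 4 overlapped between the ages, as for 78.4% of all genes tested. How reads shared by near-identical tubulin genes were counted is not given in the sources used here. The MAP1B homologue futsch was called higher, at 27.7 and 15.9 RPKM at 72 h, against 12.2 and 7.56 RPKM at 40 h, a call lost with total-read scaling, without the first 72 h library and without the second 40 h library. Of 20 genes of the motors that move cargo along microtubules 10 were higher and 1 lower, with a median of 0.44. Their share went the other way, at 0.276% and 0.261% of the summed RPKM at 72 h, against 0.318% and 0.339% at 40 h. The summed level of the motor genes was higher, at 1567 and 1390 RPKM at 72 h, against 1265 and 1243 RPKM at 40 h. Kap3, the kinesin-2 adaptor gene, had 81 and 66 RPKM at 72 h, against 36.3 and 39.5 RPKM at 40 h. The gene syd, which encodes the JIP3 adaptor, had 21.2 and 15.5 RPKM at 72 h, against 8.65 and 6.70 RPKM at 40 h. With total-read scaling 2 motor genes were higher and 5 lower, and without the first 72 h library 5 were higher.

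Guidance genes were mostly lower. Of 29 receptors and ligands 16 were lower and 3 higher, with a median of -0.52. The group took 0.0797% and 0.0874% of the summed RPKM at 72 h, against 0.312% and 0.349% at 40 h. Among receptors, otk, which encodes a co-receptor of plexin and Wnt pathways, had 1.05 and 0.274 RPKM at 72 h, against 71.2 and 69.9 RPKM at 40 h (log2 change -5.47 ± 0.34, adjusted p = 2.7e-07). The Wnt receptor gene fz had 4.70 and 3.54 RPKM at 72 h, against 106 and 121 RPKM at 40 h (log2 change -4.49 ± 0.21, adjusted p = 3.9e-08). The Ryk family gene drl had 63.3 and 47.3 RPKM at 72 h, against 212 and 202 RPKM at 40 h. The ligand gene jeb, whose product activates the Alk receptor, had 0.943 and 1.99 RPKM at 72 h, against 87.8 and 112 RPKM at 40 h (log2 change -5.38 ± 0.25, adjusted p = 3.7e-08). The sorting regulator gene comm, which keeps Robo receptors off the axon surface, had 26.6 and 29.9 RPKM at 72 h, against 182 and 182 RPKM at 40 h. Every 40 h library lay above every 72 h library in these 5 genes, where the ages were separate for 78.4% of all genes tested. Drl-2, also of the Ryk family, rose to 18 and 24.1 RPKM at 72 h, against 0.306 and 0.617 RPKM at 40 h (log2 change 3.91 ± 0.21, adjusted p = 8.6e-08), so the related genes drl and Drl-2 moved in opposite directions. The other 2 higher genes, sli, with 4.33 and 2.35 RPKM at 72 h, against 0.662 and 1.37 RPKM at 40 h, and Ptp4E, with 5.07 and 19.4 RPKM at 72 h, against 2.58 and 4.85 RPKM at 40 h, lost their calls without single libraries, sli without the first 72 h or the first 40 h library and Ptp4E without the second 72 h or the first 40 h library.

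Adhesion genes split, with 21 of 41 lower and 11 of 41 higher and a median of -0.52. Adhesion genes took 0.383% and 0.380% of the summed RPKM at 72 h, against 1.18% and 1.17% at 40 h. After Lac, the falls were largest in rst, an Ig-domain recognition gene, with 9.93 and 12.8 RPKM at 72 h, against 161 and 184 RPKM at 40 h (log2 change -3.82 ± 0.17, adjusted p = 2.5e-08), and CadN, the N-cadherin gene that acts in layer targeting of visual axons, with 7.06 and 9.23 RPKM at 72 h, against 113 and 107 RPKM at 40 h (log2 change -3.61 ± 0.16, adjusted p = 3.4e-08). The tetraspanin gene Tsp42Ee was the most abundant member, at 674 and 537 RPKM at 72 h, against 1449 and 1251 RPKM at 40 h. The leucine-rich repeat surface protein genes trn and Con rose. Tartan, trn, had 84.6 and 67.4 RPKM at 72 h, against 11.7 and 7.05 RPKM at 40 h (log2 change 2.92 ± 0.21, adjusted p = 7.7e-07). Con had 14.2 and 19.6 RPKM at 72 h, against 1.44 and 1.09 RPKM at 40 h (log2 change 2.97 ± 0.19, adjusted p = 3.5e-07). The Ig-domain gene bdl had 25 and 80.4 RPKM at 72 h, against 0.294 and 1.07 RPKM at 40 h, with the second 72 h library 3.22-fold above the first.

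The dpr and DIP families, interacting Ig-domain proteins that differ between synaptic partners in the visual system, changed in both directions. Of 21 tested, 7 were higher and 5 lower, shares close to those of all genes, with a median of 0.38. The level of dpr10 was 4.06 and 12.9 RPKM at 72 h, against 202 and 233 RPKM at 40 h (log2 change -4.70 ± 0.37, adjusted p = 1.6e-06). That of dpr15 was 10.3 and 6.21 RPKM at 72 h, against 117 and 157 RPKM at 40 h (log2 change -3.92 ± 0.37, adjusted p = 6.3e-06), and that of DIP-gamma was 0.278 and 0.472 RPKM at 72 h, against 6.36 and 8.72 RPKM at 40 h (log2 change -2.63 ± 0.37, adjusted p = 1.1e-04). Large rises of other members stood beside these falls. The level of dpr18 was 156 and 130.2 RPKM at 72 h, against 3.35 and 4.74 RPKM at 40 h (log2 change 4.84 ± 0.21, adjusted p = 2.3e-08). That of dpr2 was 143 and 123 RPKM at 72 h, against 14.7 and 10.5 RPKM at 40 h (log2 change 3.32 ± 0.15, adjusted p = 3.4e-08), and that of dpr5 was 54.2 and 62.2 RPKM at 72 h, against 6.13 and 4.59 RPKM at 40 h (log2 change 3.23 ± 0.17, adjusted p = 8.3e-08). No library of one age reached into the range of the other in these 6 genes, as for 78.4% of all genes tested. The most abundant members at 72 h, dpr21 and dpr7, rose as well. The first was at 322 and 321 RPKM at 72 h, against 112 and 131 RPKM at 40 h, and dpr7 was at 312 and 292 RPKM at 72 h, against 165 and 189 RPKM at 40 h. The call of dpr7 was lost under quantile normalization.

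The beat and side families, another set of interacting Ig-domain proteins, were split, with 4 of 13 higher and 4 lower, or 30.8% each way, close to the shares of all genes. The side gene fell to 0.658 and 0.631 RPKM at 72 h, against 27 and 30.8 RPKM at 40 h (log2 change -4.18 ± 0.27, adjusted p = 3.8e-07), and side-II to 82.4 and 81.9 RPKM at 72 h, against 180.3 and 271 RPKM at 40 h. The gene beat-VI rose to 506 and 422 RPKM at 72 h, against 65.3 and 64.1 RPKM at 40 h (log2 change 2.82 ± 0.12, adjusted p = 2.2e-08) and side-IV to 11 and 9.63 RPKM at 72 h, against 0.406 and 0.505 RPKM at 40 h (log2 change 2.96 ± 0.30, adjusted p = 9.6e-06). None of these 4 overlapped between the ages, as for 78.4% of all genes tested. The gene side-VIII had 22.8 and 77.1 RPKM at 72 h, against 0.689 and 1.69 RPKM at 40 h, again with the second 72 h library over 3-fold above the first.

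Genes of transmitter release rose, but brp, Rph and Syn fell. Of 26 genes 18 were higher and 7 lower, with a median of 0.99, and their share was 1.39% and 1.20% of the summed RPKM at 72 h, against 0.663% and 0.743% at 40 h. Syngr, the synaptogyrin gene of the vesicle membrane, had 939.7 and 715 RPKM at 72 h, against 10.7 and 5.91 RPKM at 40 h (log2 change 6.51 ± 0.22, adjusted p = 4.4e-09). The fusion genes comt, which encodes NSF, with 599 and 496 RPKM at 72 h, against 111 and 87.5 RPKM at 40 h (log2 change 2.45 ± 0.14, adjusted p = 1.5e-07), and cpx, complexin, with 711 and 498 RPKM at 72 h, against 109 and 128 RPKM at 40 h (log2 change 2.33 ± 0.17, adjusted p = 7.0e-07), followed. The vesicle SNARE gene nSyb had 807 and 644 RPKM at 72 h, against 251 and 267 RPKM at 40 h. Rop, the Munc18 gene, had 995 and 809 RPKM at 72 h, against 358 and 287 RPKM at 40 h. VGlut rose by 1.48 ± 0.15 log2 units. All 6 were higher in both 72 h libraries than in either 40 h library. The ages were separate for 78.4% of all genes tested. The active zone scaffold gene brp had 21.1 and 24.8 RPKM at 72 h, against 51.5 and 54.6 RPKM at 40 h (log2 change -1.18 ± 0.14, adjusted p = 2.7e-05). Rph, rabphilin, had 4.74 and 3.82 RPKM at 72 h, against 95.5 and 87.5 RPKM at 40 h (log2 change -4.13 ± 0.22, adjusted p = 1.1e-07). Syn, the synapsin gene, had 40.2 and 37.7 RPKM at 72 h, against 108 and 115 RPKM at 40 h (log2 change -1.50 ± 0.12, adjusted p = 2.2e-06). The level of brp was 46.9, 53.5 and 49.2 RPKM at 60 h, close to its 40 h values.

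Genes listed under endocytosis rose in 14 of 15, with none lower and a median of 1.12. Amph, amphiphysin, had 247 and 299.8 RPKM at 72 h, against 11.6 and 10.9 RPKM at 40 h (log2 change 4.48 ± 0.16, adjusted p = 6.7e-09). The gene shi, which encodes dynamin, had 659 and 512 RPKM at 72 h, against 106 and 86.5 RPKM at 40 h (log2 change 2.59 ± 0.14, adjusted p = 1.2e-07). Under quantile normalization 9 were higher.

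Receptor genes changed in kind. Of 30 transmitter receptor genes 13 (43.3%) were higher and 6 (20%) lower, with a median of 0.61. Of all genes 30.5% were higher and 29.4% lower. After ort, the largest rises were in CG8916, a member of the GABA-A receptor subunit family, with 1150.4 and 1025 RPKM at 72 h, against 29.2 and 22.6 RPKM at 40 h (log2 change 5.35 ± 0.13, adjusted p = 1.0e-09), and DopEcR, whose product binds both dopamine and ecdysteroids, with 253 and 233 RPKM at 72 h, against 11 and 13 RPKM at 40 h (log2 change 4.23 ± 0.12, adjusted p = 1.3e-09). Against these, nAChRalpha7 fell, as did the kainate-type glutamate receptor gene KaiR1D, with 55.9 and 81.7 RPKM at 72 h, against 232 and 217 RPKM at 40 h (log2 change -1.72 ± 0.16, adjusted p = 4.6e-06), and Octbeta3R, an octopamine receptor gene, with 1.89 and 2.17 RPKM at 72 h, against 8.04 and 11.7 RPKM at 40 h (log2 change -1.83 ± 0.29, adjusted p = 2.6e-04). In each the ages were separate, as for 78.4% of all genes tested.

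Genes of excitability rose broadly. Of 28 voltage-gated and leak channel genes 22 were higher and 1 lower, with a median of 1.42. Their summed share was 0.412% and 0.405% of the summed RPKM at 72 h, against 0.148% and 0.221% at 40 h. The gene unc79, an accessory subunit of the sodium leak channel, had 107 and 108 RPKM at 72 h, against 2.12 and 3.04 RPKM at 40 h (log2 change 4.93 ± 0.16, adjusted p = 4.1e-09). Ih, the hyperpolarisation-activated channel gene, had 249.6 and 225 RPKM at 72 h, against 13.9 and 19.1 RPKM at 40 h (log2 change 3.78 ± 0.17, adjusted p = 3.4e-08). Shal, a fast inactivating potassium channel gene, had 141 and 121 RPKM at 72 h, against 14.6 and 17.4 RPKM at 40 h (log2 change 2.96 ± 0.17, adjusted p = 1.5e-07). The auxiliary subunit genes of the sodium channel Teh2 and Teh3 were the most abundant members. Teh3 had 425 and 386 RPKM at 72 h, against 55.2 and 72.9 RPKM at 40 h. Teh2 had 274 and 226 RPKM at 72 h, against 51.9 and 69.1 RPKM at 40 h. These 5 genes showed no overlap, as for 78.4% of all genes tested. The only fall was in Shawl, a potassium channel gene of the Shaw family, with 1.55 and 2.24 RPKM at 72 h, against 70.1 and 76 RPKM at 40 h (log2 change -4.69 ± 0.19, adjusted p = 1.5e-08).

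Ion pumps and exchangers rose in 11 of 18, with 1 lower, the chloride transporter gene ClC-b at 7.47 and 10.5 RPKM at 72 h, against 39.9 and 35.3 RPKM at 40 h, and a median of 1.11. The group's share was 1.22% and 1.22% of the summed RPKM at 72 h, against 0.320% and 0.379% at 40 h. Besides Nckx30C and kcc, the sodium pump genes were abundant, with Atpalpha, the catalytic subunit, at 2673 and 2540.04 RPKM at 72 h, against 491 and 577 RPKM at 40 h (log2 change 2.29 ± 0.14, adjusted p = 2.9e-07). The gene nrv3, of a neuronal beta subunit, was at 1835 and 1658 RPKM at 72 h, against 429 and 478 RPKM at 40 h (log2 change 1.94 ± 0.13, adjusted p = 5.0e-07). The beta subunit gene nrv2, also listed among the glial markers, had 153 and 335 RPKM at 72 h, against 5.25 and 5.59 RPKM at 40 h. The second 72 h library was over 2-fold above the first for nrv2 and not for the other 4.

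Signalling genes of the cAMP and calcium pathways rose in part, with 13 of 29 (44.8%) higher and 3 of 29 (10.3%) lower. Of all genes 30.5% were higher and 29.4% lower. Pka-C3, a catalytic subunit of the cAMP-dependent kinase family, had 284 and 258 RPKM at 72 h, against 1.28 and 1.97 RPKM at 40 h (log2 change 6.71 ± 0.16, adjusted p = 8.2e-10). The protein kinase C gene Pkc53E had 12 and 10.6 RPKM at 72 h, against 0.872 and 1.60 RPKM at 40 h. RyR, the ryanodine receptor calcium channel gene, had 6.04 and 9.05 RPKM at 72 h, against 0.173 and 1.03 RPKM at 40 h. The abundant genes Gbeta13F, with 233 and 238 RPKM at 72 h, against 243 and 247 RPKM at 40 h, and CanB, with 299 and 251 RPKM at 72 h, against 259 and 271 RPKM at 40 h, did not pass. The group's median of 0.26 became -0.02 with total-read scaling. Among 5 innexin genes, which build electrical synapses, 1 (20%) was higher and 2 (40%) were lower, beside the same shares of all genes. The largest fall was in shakB, with 38.7 and 32.8 RPKM at 72 h, against 105 and 122 RPKM at 40 h (log2 change -1.64 ± 0.16, adjusted p = 8.1e-06).

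Genes of the ecdysone cascade moved in both directions. Of 18 genes of the response 9 (50%) were lower and 2 (11.1%) higher, with a median of -0.65. Of all genes 29.4% were lower and 30.5% higher. The nuclear receptor gene ftz-f1, which is switched on as the ecdysone titre declines, had 59.9 and 60.5 RPKM at 72 h, against 0.788 and 0.448 RPKM at 40 h (log2 change 5.25 ± 0.21, adjusted p = 1.4e-08). It stood at 43, 65 and 54.8 RPKM at 60 h, close to its 72 h values. Blimp-1, a repressor of ftz-f1 in other fly tissues, had 0.611 and 1.20 RPKM at 72 h, against 86.5 and 76.3 RPKM at 40 h (log2 change -5.45 ± 0.27, adjusted p = 5.4e-08). Hr4 had 35.7 and 27.4 RPKM at 72 h, against 229 and 301 RPKM at 40 h (log2 change -3.03 ± 0.17, adjusted p = 1.6e-07). Eip75B had 37.4 and 45.6 RPKM at 72 h, against 235 and 222 RPKM at 40 h (log2 change -2.44 ± 0.14, adjusted p = 1.8e-07). These 3 genes, all early or delayed-early responders to ecdysone, were higher in both 40 h libraries than in either 72 h library. The ages were separate for 78.4% of all genes tested. The receptor gene EcR did not pass the test, with 37 and 29.1 RPKM at 72 h, against 44.6 and 34.9 RPKM at 40 h (log2 change -0.26 ± 0.17, adjusted p = 0.22). Hr3, which encodes a delayed-early receptor, had 2.06 and 2.70 RPKM at 72 h, against 4.40 and 8.67 RPKM at 40 h (log2 change -1.10 ± 0.35, adjusted p = 0.02), and the call was lost without the first 72 h library or without the second 40 h library. Eip63E, a cyclin-dependent kinase gene named for its ecdysone response, rose to 117 and 132 RPKM at 72 h, against 17.4 and 22.6 RPKM at 40 h. Without the second 40 h library 5 genes of the response were lower.

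Transcription factor genes of lamina neurons mostly changed little or fell. Of 17 tested, 8 (47.1%) were lower and 1 (5.88%) higher, with a median of -0.23. Of all genes 29.4% were lower and 30.5% higher. The most abundant, slp1, had 390.4 and 324 RPKM at 72 h, against 505 and 491 RPKM at 40 h (log2 change -0.48 ± 0.12, adjusted p = 0.0059). The gene dac had 129.6 and 106 RPKM at 72 h, against 219 and 187 RPKM at 40 h (log2 change -0.78 ± 0.13, adjusted p = 3.5e-04). Both were lower in both 72 h libraries, by less than 2-fold, whereas svp did not pass. Its change became -0.32, called lower, with total-read scaling. Factors of other lamina and medulla neurons did not move together. The L4 and L5 factor gene bsh had 4.52 and 4.05 RPKM at 72 h, against 3.85 and 1.83 RPKM at 40 h. The gene ap had 0.499 and 1.61 RPKM at 72 h, against 1.27 and 1.34 RPKM at 40 h. For Ets65A and vvl the lower 72 h library exceeded the higher 40 h library 4.84-fold and 2.83-fold. For hth the lower 40 h library exceeded the higher 72 h library 3.69-fold. The member called higher was bab2, at 3.72 and 9.02 RPKM at 72 h, against 0.850 and 1.27 RPKM at 40 h, a call lost without the second 72 h library. Without the first 40 h library 5 factors were lower.

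RNA-binding protein genes of neurons fell or did not pass. Of 24 genes 15 were lower and none higher, with a median of -0.85. The translational repressor gene brat had 2.65 and 2.72 RPKM at 72 h, against 52.7 and 58.2 RPKM at 40 h (log2 change -3.94 ± 0.21, adjusted p = 9.6e-08). The gene bru1, of the Bruno family, had 0.625 and 0.980 RPKM at 72 h, against 11.6 and 15.3 RPKM at 40 h (log2 change -2.998 ± 0.27, adjusted p = 4.6e-06). Syp, which encodes the Syncrip homologue, had 13.9 and 16.9 RPKM at 72 h, against 84.2 and 98.2 RPKM at 40 h (log2 change -2.49 ± 0.15, adjusted p = 2.3e-07). The neuronal splicing regulator gene elav had 23.3 and 21.9 RPKM at 72 h, against 74.1 and 63.4 RPKM at 40 h (log2 change -1.56 ± 0.14, adjusted p = 4.2e-06), without overlap. The gene stood at 23, 25.6 and 25.4 RPKM at 60 h, close to its 72 h values.

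Cell death genes moved in both directions. Of 10 tested 5 (50%) were lower and 3 (30%) higher, with a median of -0.67. Of all genes 29.4% were lower and 30.5% higher. The death-inducing gene hid had 0.601 and 0.542 RPKM at 72 h, against 40.7 and 47.9 RPKM at 40 h (log2 change -4.85 ± 0.28, adjusted p = 1.8e-07). The caspase gene Dcp-1 had 7.27 and 6.27 RPKM at 72 h, against 14.1 and 21.4 RPKM at 40 h. The inhibitor gene Diap1, whose product hid antagonises, also fell, to 124 and 123 RPKM at 72 h, against 287 and 252 RPKM at 40 h (log2 change -1.12 ± 0.13, adjusted p = 2.7e-05), whereas its relative Diap2 rose to 218 and 199 RPKM at 72 h, against 38.3 and 46.1 RPKM at 40 h (log2 change 2.28 ± 0.13, adjusted p = 1.5e-07). Between the ages none of these 4 genes overlapped, as for 78.4% of all genes tested.

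Genes that changed had median spans in the annotation close to that of all genes, but long genes were more frequent among the larger changes. The median span was 3.50 kb for genes higher by at least 2-fold and 3.36 kb for genes lower by at least 2-fold, against 3.16 kb for all genes tested. When the genes were split by span into 4 groups of equal size, the longest, of 7.39 kb and more, held 33.6% higher and 29.4% lower genes. The shortest, of up to 1.70 kb, held 35.1% higher and 26.7% lower genes, and the 2 groups between held 26.5% and 27.0% higher genes.

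Accessibility of the promoter, measured by ATAC-seq in separate libraries of L1 at the same ages (2 each at 72 h and 40 h), was lower more often than higher at genes whose RNA fell, whereas at genes whose RNA rose the balance depended on the scaling. Peak levels are the authors' normalised reads per kilobase of peak, and each gene was given the peak nearest its start, within 1 kb. Across all 23508 peaks tested 55.4% were called, 26.0% higher and 29.4% lower at 72 h. The 13016 called peaks became 8667 without the second 72 h library and 6834 without the second 40 h library. Of 4787 genes with a promoter peak, 253 (5.29%) had a higher and 1309 (27.3%) a lower peak. Of the 902 whose RNA was higher by at least 2-fold, 107 had a higher and 227 a lower peak, with a median peak change of -0.18. Of the 826 whose RNA was lower by at least 2-fold, 23 had a higher and 351 a lower peak, with a median of -0.45. Under quantile normalization of the peaks the counts were 230 higher and 59 lower among genes with rising RNA, 36 higher and 187 lower among those with falling RNA, and 584 higher and 470 lower among all.

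Promoters of single genes can be read beside their RNA. The 24 genes with the largest changes, together with ftz-f1, EcR, Hr3, VGlut, svp, brp and elav, made 31 genes, of which 25 had a promoter peak. In 13 of them RNA and peak were both lower. Among all 4787 genes with a promoter peak 27.3% had a lower peak, and 42.5% of those whose RNA was lower by at least 2-fold. The peak of elav, among these 13, changed sign under quantile normalization. The peak of CG14086 was at 38.1 and 35.8 at 72 h, against 125 and 168 at 40 h (log2 change -1.95 ± 0.21, adjusted p = 2.9e-05), that of Oatp26F at 25.2 and 32.3 at 72 h, against 126 and 147 at 40 h (log2 change -2.21 ± 0.21, adjusted p = 1.4e-05), and that of sNPF at 33.6 and 33.1 at 72 h, against 106 and 130.1 at 40 h (log2 change -1.79 ± 0.22, adjusted p = 7.2e-05). In these 3 the 72 h and 40 h values did not overlap. The peak of PyK was the only one higher together with its RNA, at 127 and 117 at 72 h, against 87.6 and 89.8 at 40 h (log2 change 0.45 ± 0.18, adjusted p = 0.0496), and that call was lost when any single library of the 4 was left out. The peak of ort was at 130.2 and 123 at 72 h, against 90.7 and 112 at 40 h (log2 change 0.32 ± 0.19, adjusted p = 0.17), and that of vex at 70.1 and 66 at 72 h, against 70.9 and 91.4 at 40 h (log2 change -0.24 ± 0.20, adjusted p = 0.32), and neither change passed the test, beside RNA whose lower 72 h library was about 120-fold above the higher 40 h library for ort and about 169-fold for vex. At ftz-f1 the peak was lower while the RNA was higher, with 34.2 and 36.5 at 72 h, against 77.2 and 90.2 at 40 h (log2 change -1.22 ± 0.22, adjusted p = 8.4e-04). At VGlut the peak was also lower while the RNA rose, with 141 and 113 at 72 h, against 211 and 274 at 40 h (log2 change -0.92 ± 0.21, adjusted p = 0.0033), a call lost under quantile normalization and without the second 72 h library. At kcc, whose RNA rose, the peak was lower too, with 96.7 and 98.2 at 72 h, against 126 and 177 at 40 h (log2 change -0.61 ± 0.20, adjusted p = 0.024). The change of the kcc peak turned sign under quantile normalization.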

How the data were processed

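L1 neurons sorted from brains were profiled by SMART-seq2 RNA-seq and by ATAC-seq, per the labels' protocols. The authors deposited RPKM per gene, and a level per ATAC peak that the values show to be RPKM per peak. Bowtie2 2.2.9, MACS2 2.1.1, bedtools and edgeR 3.26.8 are named in the submitters' processing notes, with no role stated. Samples were grouped by title. The 7 RNA libraries were fitted by age with limma 3.58.1 (R 4.3.3) on log2(RPKM + 1) with a variance trend, for the contrast 72 h minus 40 h. Whole reads were recovered for 7074 of 7076 genes, within 0.01 reads, to learn the depth.

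The genes whose changes are described were drawn from the following, not all of which are printed. First came the 12 largest rises and 12 largest falls with no overlap and at least 10 RPKM. The 10 most abundant genes of each age were added, with the 3 largest changes each way and the 2 most abundant genes of each group list. The rest were the marker genes, and ftz-f1, EcR, Hr3, ort, VGlut, svp, brp and elav. The members and the 41 lists were chosen with earlier results of these data known, and 9 entries were dropped later because their symbols name genes of other roles. Symbols were matched to a Release 6 gene table, 6643 directly and 409 by synonym.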

Additional observations from a re-analysis of the deposited data

How the results depend on the processing

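Every alternative left between 3539 and 4523 genes called, against 4126. Fitting only the 4 libraries gave 3806, quantile normalization 4218, voom on recovered reads 4025 and no variance trend 4052. A low-value limit of 5 RPKM, which left 5854 genes to test, gave 3796. No limit gave 4129, and pseudocounts of 0.5 and 5 gave 4099 and 4124. The ages share 2 replicate numbers, which the labels do not tie to a shared day or pool, and the replicate differences of the 2 ages correlated at 0.21. The replicate block gave 4060 called genes, 2095 higher and 1965 lower. An edgeR fit of recovered reads was planned and not run, since the deposited values are RPKM. Few libraries per age limit all of these results, and the recovered reads of the deposited genes were fewer at 72 h.

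Counts that moved by more than 1.5 times were the following, and the cause was not tested. Genes lower by at least 2-fold numbered 779 with a pseudocount of 5 and 1870 with total-read scaling, which also gave 3117 lower genes. Cytosolic ribosomal genes were higher in 5 with the 4 libraries alone, in 1 under quantile normalization and in 1 with total-read scaling, and lower in 74 and 57 under those scalings. Proteasome genes were lower in 30 (quantile) and 31 (total reads), and endocytosis genes higher in 9 (quantile). With total-read scaling 38 mitochondrial ribosomal, 7 adhesion and 2 motor genes were higher, and 14 ribosome biogenesis and 26 endoplasmic reticulum genes were lower.

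Leaving out each library in turn gave 3539 to 3751 called genes. Cytosolic ribosomal genes were then higher in 3 to 8 and lower in 7 to 20, motor genes higher in 5 to 10, proteasome genes lower in 12 to 19, tRNA synthetase genes lower in 6 to 11, ecdysone response genes lower in 5 to 8 and lamina factors lower in 5 to 7, and 6834 to 11569 ATAC peaks were called.

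Under quantile normalization the sign turned for CanB (-0.66), Hsc70-4 (-0.44), Lis-1 (-0.51), RpL15 (-0.17), RpL21 (-0.11), RpL40 (-0.48), Sap-r (-0.34), eIF4A (-0.50) and the promoter peaks of elav (0.12) and kcc (0.15). With total-read scaling it turned for CanB (-0.39), Lis-1 (-0.34), Sap-r (-0.36), Srp54k (-0.0017), ThrRS (-0.37), eIF4A (-0.33), mod (-0.36) and svp (-0.32).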

Other observations

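Genes of chromosome 4, the small and largely heterochromatic autosome of the fly, were seldom lower at 72 h. Of its 66 tested genes 28 (42.4%) were higher and 4 (6.06%) lower, with a median log2 change of 0.23. On the 5 other chromosome arms 28.7% to 31.4% of genes were higher and 27.7% to 31.6% lower. The low number of falls depended on the scaling, since chromosome 4 had 22 higher and 10 lower genes under quantile normalization and 19 higher and 21 lower with total-read scaling. These counts were noticed after the data were seen and were given no test.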
